A study of Mus musculus with 7 samples.

Results

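The messenger RNAs of MHC class I antigen presentation were examined in the retinal pigment epithelium (RPE) of aged mice. They are the genes H2-K1, H2-D1, H2-T23, H2-T24, B2m, Tap1, Tap2, Psmb8, Psmb9 and Nlrc5, which were taken by symbol as 10 of the 52740 genes in the deposited count table. All 10 passed the filter on low counts and were tested among 16990 genes. The RPE came from 4 WT mice of the strain C57BL6/J (3 females, 1 male) and 3 LC3b-/- mice of the strain B6;129P2-Map1lc3b tm1Mrab/J (2 females, 1 male), all 24 months old. Each mouse gave 1 library, and none was pooled. LC3b-/- mice lack, in every cell of the body, the autophagy protein LC3B encoded by Map1lc3b. The knockout strain is a mix of C57BL/6 and 129P2 background, so genotype and strain cannot be told apart in these libraries, and neither can the group number in the mouse names, which never is the same in both genotypes. The question put to these genes was whether class I presentation differed between LC3b-/- and WT RPE, and which of its steps differed.

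Class I molecules show peptides from inside a cell to CD8 T cells. Proteasomes cut cellular proteins, and after interferon their catalytic subunits are exchanged for those of the immunoproteasome. The transporter TAP carries the peptides into the endoplasmic reticulum, where they are loaded onto a heavy chain paired with beta-2-microglobulin. The RPE lies between the retina and the choroid, in a tissue where immune responses are normally restrained. The heavy chain genes of the mouse H2 complex lie on chromosome 17, resemble each other closely and are among the genes that differ most between strains in their alleles and their number.

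The libraries held 24495952 to 34819720 counts in WT and 26704461 to 35616134 in LC3b-/-. Map1lc3b had 2778 to 4444 counts in WT and 168 to 332 in LC3b-/- (log2 fold change -3.98, adjusted p = 1.86e-04), which fits the labels. All 13 markers of RPE had counts, and their summed level was 32832 to 50559 in WT in counts-per-million units (CPM) and 15105 to 30398 CPM in LC3b-/-. In bulk RNA, fewer cells of a type and less RNA per cell cannot be told apart, and this holds for every level below. A gene is called changed at an adjusted p under 0.05 (edgeR's quasi-likelihood test, Benjamini-Hochberg over all genes tested) together with a fold change of at least 1.5.

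Of the 10 genes, 9 had a higher level in LC3b-/- than in WT, and B2m, the light chain, had a lower one. Of all genes tested, 51.2% were on the higher side. 1 gene, H2-T24, was called higher, against 0.124% of all genes tested. 3 genes (H2-D1, H2-T24 and Psmb8) had an unadjusted p under 0.05 on the higher side, against 13.5% of all genes. In the same 3 genes every LC3b-/- library lay above every WT library, which was so for 12% of all genes. The median log2 fold change of the 10 genes was 0.62, beside a median of 0.01 over all genes tested. With DESeq2 the genes called higher were H2-T24 and Psmb8, against 6.85% of all genes called higher by that tool. The count with an unadjusted p under 0.05 went to 8 of 10 without the library WT F1, and was 2 or 3 without any other library. Without WT F1 the number called among all genes tested also rose, from 40 to 215.

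**Figure D1:**
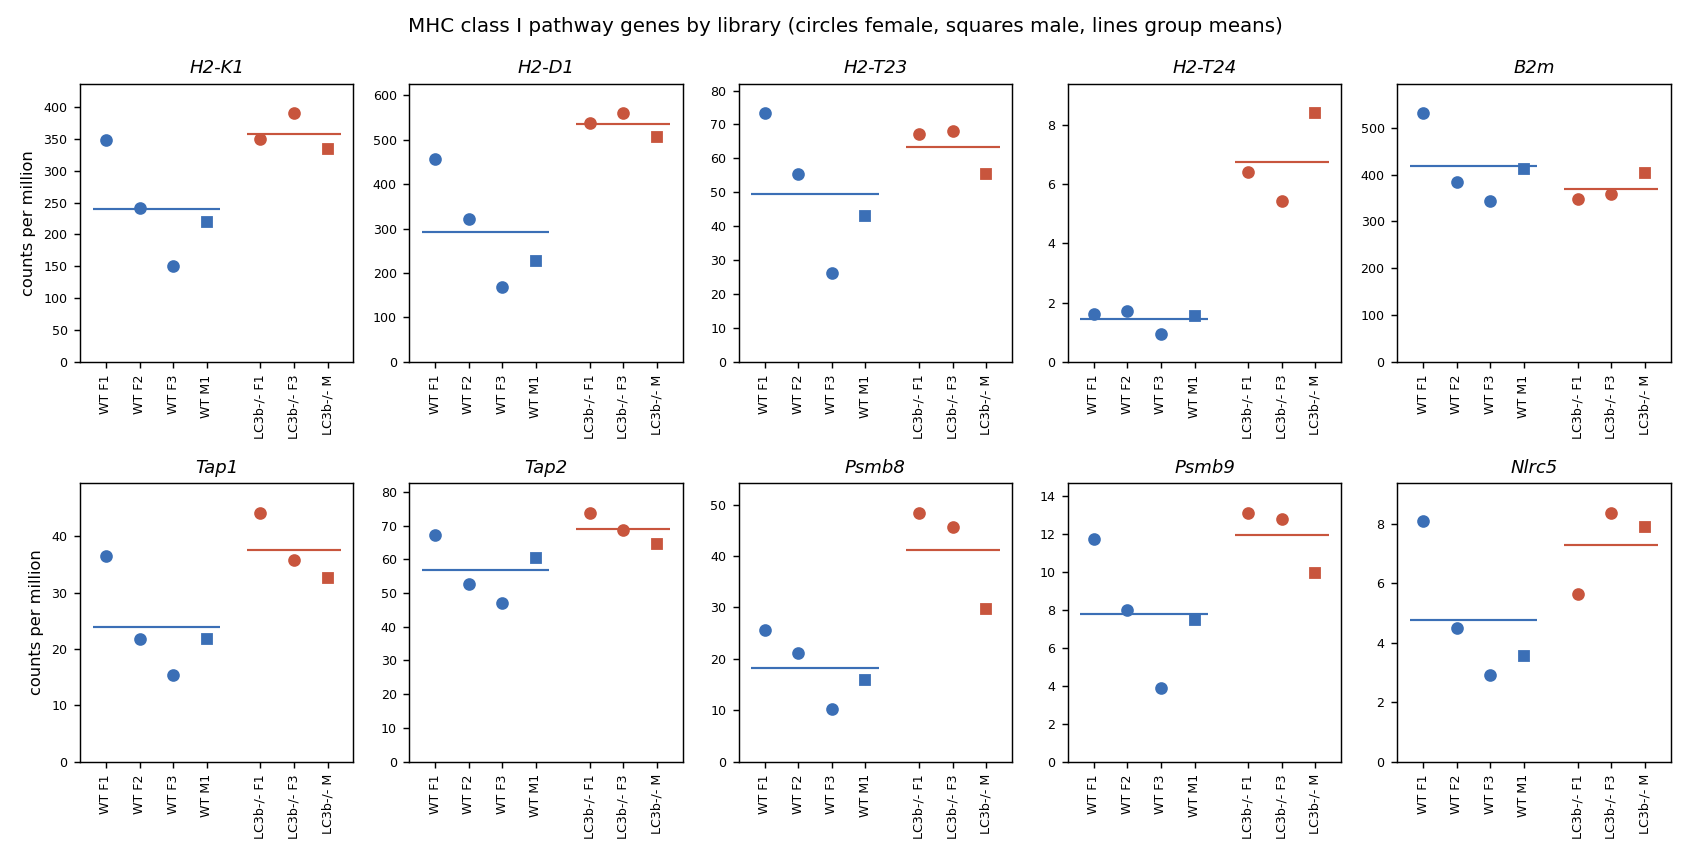
Level of each gene in CPM (vertical axes, from 0) in the 4 WT libraries (blue) and the 3 LC3b-/- libraries (red), with circles for females, squares for males and lines for group means. H2-T24 and Psmb8 separated the groups most widely, WT F1 lay near the LC3b-/- level for most genes, WT F3 was the lowest WT library in every gene, and B2m was not higher in LC3b-/-.

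H2-K1 and H2-D1 encode the classical heavy chains, which present peptides to CD8 T cells, and they were the most abundant heavy chain messages. H2-K1 (chr17:34214987-34219321, minus strand, GRCm39) stood at 349, 241, 150 and 219 CPM in the WT libraries (females F1, F2, F3, male M1) and at 349, 390 and 334 CPM in the LC3b-/- libraries (females F1, F3, male M). The LC3b-/- libraries lay close together while the WT libraries were spread more widely, and WT F1 was inside the LC3b-/- range. The means were 240 ± 82.5 CPM (SD, n = 4) and 358 ± 28.7 CPM (SD, n = 3), a log2 fold change of 0.58 (SE 0.27, adjusted p = 0.231), so the difference did not pass the test. H2-D1 (chr17:35481691-35486475, plus strand) stood at 456, 322, 168 and 226 CPM in the 4 WT libraries and at 537, 560 and 507 CPM in the 3 LC3b-/- libraries. Here all LC3b-/- libraries were above all WT libraries. The means were 293 ± 126 CPM and 535 ± 26.2 CPM, with a log2 fold change of 0.87 (SE 0.32, p = 0.0285, adjusted p = 0.166, exact permutation p = 0.0571, where the 35 ways to divide the libraries allow no p below 0.0286). The difference was not called.

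H2-T23 encodes Qa-1, a nonclassical heavy chain that presents signal peptides of other class I molecules to the inhibitory receptors of natural killer cells. H2-T23 (chr17:36340229-36345571, minus strand) had 73.3, 55.4, 26.1 and 43.1 CPM in WT and 67.0, 68.0 and 55.4 CPM in LC3b-/-. The groups overlapped, since WT F1 was the highest library and WT F2 was level with LC3b-/- M. The log2 fold change was 0.36 (SE 0.31, adjusted p = 0.508).

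H2-T24, another heavy chain gene of the T region whose function is not established, rose in LC3b-/- RPE from a low level. H2-T24 (chr17:36314363-36331485, minus strand) had 55, 41, 25 and 40 counts in WT and 159, 216 and 284 counts in LC3b-/-. These counts were 1.61, 1.70, 0.936 and 1.54 CPM and 6.40, 5.42 and 8.39 CPM, and no WT library came near an LC3b-/- library. The means were 1.45 ± 0.346 CPM and 6.74 ± 1.51 CPM, which is 4.65-fold (log2 fold change 2.22, SE 0.29, p = 9.2e-05, adjusted p = 0.0480, exact permutation p = 0.0286, the smallest these 7 libraries allow). DESeq2 gave an adjusted p of 5.47e-09. The call lay at the threshold: it held when WT F1 or LC3b-/- M was left out, and was lost on leaving out WT F2 (adjusted p = 0.138), F3 (0.107) or M1 (0.123), or the LC3b-/- females F1 (0.127) or F3 (0.175), while the log2 fold change stayed between 2.02 and 2.32. The noncoding gene A930015D03Rik (chr17:36305345-36349344) spans the locus on the opposite strand with exons that overlap exons of H2-T24. A930015D03Rik had 81, 72, 36 and 55 counts in WT and 97, 206 and 293 in LC3b-/- (log2 fold change 1.42, adjusted p = 0.103). The library kit keeps the strand, but the strand setting of the counting is not given in the sources used here, so the part of these reads in the H2-T24 value was not tested.

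H2-K1, H2-D1 and H2-T23 share much of their sequence, which bears on how 100-base reads could be divided among them. H2-T24 is less like them and shares no 100-base stretch with an H2 gene. The exon of the alpha-3 domain, the part of the heavy chain that CD8 touches and that is best conserved, shows this. It is exon 4, with 276 bases, all of them coding, and is printed here as the reference strain C57BL/6 has it (GRCm39, GENCODE), with capitals for the bases unlike H2-K1. The positions are chr17:34216259-34216534 (minus strand) for H2-K1, chr17:35484760-35485035 (plus strand) for H2-D1, chr17:36341714-36341989 (minus strand) for H2-T23 and chr17:36325692-36325967 (minus strand) for H2-T24.
H2-K1: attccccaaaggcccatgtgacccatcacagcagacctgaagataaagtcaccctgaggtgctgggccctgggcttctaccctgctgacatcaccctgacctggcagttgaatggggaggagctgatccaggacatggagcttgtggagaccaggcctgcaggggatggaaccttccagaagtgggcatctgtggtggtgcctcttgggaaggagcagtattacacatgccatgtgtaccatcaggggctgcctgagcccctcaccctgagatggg
H2-D1: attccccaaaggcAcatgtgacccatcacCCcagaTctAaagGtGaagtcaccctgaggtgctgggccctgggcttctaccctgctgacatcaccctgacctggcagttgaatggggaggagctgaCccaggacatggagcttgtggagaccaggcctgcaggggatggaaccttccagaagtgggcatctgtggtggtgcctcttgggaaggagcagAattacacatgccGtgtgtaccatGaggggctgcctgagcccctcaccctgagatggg
H2-T23: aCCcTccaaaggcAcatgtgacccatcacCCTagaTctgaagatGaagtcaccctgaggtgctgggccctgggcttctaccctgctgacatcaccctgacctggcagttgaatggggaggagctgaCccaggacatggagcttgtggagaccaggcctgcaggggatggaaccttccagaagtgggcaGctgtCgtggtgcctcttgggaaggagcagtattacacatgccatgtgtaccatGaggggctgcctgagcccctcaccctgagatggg
H2-T24: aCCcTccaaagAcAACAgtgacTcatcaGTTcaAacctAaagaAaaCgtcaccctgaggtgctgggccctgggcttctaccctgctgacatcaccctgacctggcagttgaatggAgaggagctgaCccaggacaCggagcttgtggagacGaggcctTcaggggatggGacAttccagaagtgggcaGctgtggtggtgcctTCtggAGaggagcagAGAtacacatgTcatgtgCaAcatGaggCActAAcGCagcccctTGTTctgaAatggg
In this exon H2-D1 differed from H2-K1 at 11 bases (96.0% identity), H2-T23 at 13 (95.3%) and H2-T24 at 46 (83.3%). The longest run without a difference from H2-K1 was 91 bases in H2-D1, 81 in H2-T23 and 68 in H2-T24. H2-D1 and H2-T23 were closer to each other, with 10 differences and a run of 145 identical bases, so that whole 100-base reads from this exon can match both. Over the whole coding sequence H2-K1 and H2-D1 were 88.3% identical and H2-K1 and H2-T23 79.1%, while H2-T24 was 58.4% identical to H2-T23 and less so to H2-K1 and H2-D1.

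Of all 100-base stretches in the annotated transcripts of each gene, 2.03% of H2-K1, 2.53% of H2-D1, 2.57% of H2-T23 and 2.27% of H2-T24 occurred in another gene. None did in B2m, Tap1, Tap2, Psmb8, Psmb9 or Nlrc5. When each gene was summed with every gene sharing such a stretch, the log2 fold change was 0.72 for H2-K1 (6 genes added), 0.67 for H2-D1 (10 added) and 0.72 for H2-T23 (9 added). For H2-T24 the 7 genes added were no H2 genes and held most of the sum, in which H2-T24 was 1.58% in WT and 7.43% in LC3b-/-, and the log2 fold change of that sum was -0.03. The summed counts of H2-K1 and H2-D1, a sum chosen after their values were seen, gave a log2 fold change of 0.74 (SE 0.30, adjusted p = 0.189). Reads were matched to the C57BL/6 sequence alone, and how reads from 129P2 alleles would be assigned was not tested.

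B2m, the light chain that every class I heavy chain needs to reach the surface, did not follow the heavy chains. B2m (chr2:121977957-121983594) had 531, 385, 344 and 413 CPM in WT and 348, 358 and 404 CPM in LC3b-/-. WT F1 was the highest, and the other libraries of both groups covered the same range. The means were 418 ± 80.1 CPM and 370 ± 29.9 CPM, with a log2 fold change of -0.18 (SE 0.18, adjusted p = 0.568). The summed level of all heavy chain genes with a count in any library was 1200, 817, 455 and 613 CPM in WT. In LC3b-/- it was 1207, 1292 and 1181 CPM, and WT F1 lay within that range. Of these genes 18 were tested, and H2-K1 and H2-D1 made up 67.1% to 73.5% of the sum of the 18. The sum of the 18 had a log2 fold change of 0.67 (SE 0.32, adjusted p = 0.244, exact permutation p = 0.0857). The CPM of B2m per summed heavy chain CPM, a ratio chosen after its parts were seen and given as a description, was 0.443, 0.471, 0.757 and 0.674 in WT and 0.288, 0.277 and 0.342 in LC3b-/-. The ratio was lower in each LC3b-/- library than in any WT library.

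Tap1 and Tap2 encode the paired chains of the peptide transporter. Tap1 had 36.6, 21.7, 15.4 and 21.8 CPM in WT and 44.1, 35.9 and 32.6 CPM in LC3b-/-. WT F1 lay among the LC3b-/- libraries and the other WT libraries lay below them, with a log2 fold change of 0.65 (SE 0.28, adjusted p = 0.209). Tap2 had 67.1, 52.7, 47.1 and 60.3 CPM in WT and 73.7, 68.8 and 64.6 CPM in LC3b-/-. Its groups overlapped through WT F1 alone, and its log2 fold change of 0.28 (SE 0.14, adjusted p = 0.265) was smaller than that of Tap1. Neither difference passed the test.

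Around the transporter, the genes of peptide loading and trimming divided. Of 7 such genes, 5 were higher in LC3b-/- and 2 lower, 2 had an unadjusted p under 0.05 on the higher side (28.6%, against 13.5% of all genes), none was called, and the median log2 fold change was 0.10. The 2 were Tapbp, which encodes tapasin, the bridge between TAP and the heavy chain, and Tapbpl, which encodes the related editor TAPBPR. In WT Tapbp averaged 106 ± 11.1 CPM, and in LC3b-/- 151 ± 21.7 CPM (log2 fold change 0.51, SE 0.14, adjusted p = 0.109). Tapbpl averaged 12.2 ± 0.734 CPM and 16.5 ± 1.97 CPM (log2 fold change 0.44, SE 0.14, adjusted p = 0.129). In both genes all LC3b-/- libraries were above all WT libraries. The general chaperones of the loading complex stood at or below the WT level, with log2 fold changes of -0.19 for Calr (calreticulin, adjusted p = 0.592) and -0.25 for Canx (calnexin, adjusted p = 0.320). Erap1, an aminopeptidase that trims peptides in the endoplasmic reticulum, had a log2 fold change of 0.18 (adjusted p = 0.385).

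Psmb8 and Psmb9 encode 2 of the 3 catalytic subunits of the immunoproteasome. Psmb8 had 25.5, 21.2, 10.2 and 15.9 CPM in WT and 48.3, 45.6 and 29.7 CPM in LC3b-/-. All LC3b-/- libraries were above all WT libraries. The means of 18.2 ± 6.62 CPM and 41.2 ± 10.1 CPM gave a 2.26-fold difference (log2 fold change 1.18, SE 0.32, adjusted p = 0.105, exact permutation p = 0.0571), which edgeR did not call and DESeq2 did (adjusted p = 0.0130). Psmb9 had 11.7, 7.9965, 3.86 and 7.46 CPM in WT and 13.1, 12.8 and 9.92 CPM in LC3b-/-. The groups overlapped through WT F1, and the log2 fold change was 0.62 (SE 0.34, adjusted p = 0.308).

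The third catalytic subunit, Psmb10, averaged 20.6 ± 3.05 CPM and 27.8 ± 5.29 CPM in WT and LC3b-/- (log2 fold change 0.43, SE 0.17, adjusted p = 0.190). Among Psmb10 and the 3 genes of the interferon-induced and nuclear proteasome activators (Psme1, Psme2 and Psme3), 3 of 4 were higher in LC3b-/-, 2 had an unadjusted p under 0.05 on the higher side (13.5% of all genes did) and none was called. Psme2 was the other of these 2, at 42.1 ± 5.22 CPM and 58.9 ± 12.6 CPM (log2 fold change 0.48, adjusted p = 0.155). Psme1 had a log2 fold change of 0.28 (adjusted p = 0.298) and Psme3 one of -0.02 (adjusted p = 0.933). The subunits that the immunoproteasome replaces were all on the lower side and none was called, with log2 fold changes of -0.19 for Psmb5 (adjusted p = 0.424), -0.11 for Psmb6 (adjusted p = 0.643) and -0.28 for Psmb7 (adjusted p = 0.297).

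The message of each immunoproteasome subunit was also set against that of the subunit it replaces, as a ratio within each library. A ratio of messenger RNAs does not measure the exchange of proteins in the proteasome. Psmb8 stood at 12.2% to 34.7% of Psmb5 in WT and at 35.5% to 74.8% in LC3b-/-. The log2 ratio was -1.53, -1.96, -3.03 and -2.52 in WT and -0.59, -0.42 and -1.49 in LC3b-/-, a difference of 1.42 (exact two-sided permutation p = 0.0571). WT F1 and LC3b-/- M were nearly equal, at the border between groups that did not overlap. Psmb10 stood at 13.2% to 21.0% of Psmb7 in WT and at 21.3% to 31.7% in LC3b-/-, again without overlap (difference of the log2 ratio 0.70, exact permutation p = 0.0571). For Psmb9 over Psmb6 the ranges of 3.73% to 12.6% and 9.19% to 15.0% overlapped (difference 0.83, exact permutation p = 0.143). None of the 3 ratios passed 0.05. Part of the transcripts of Psmb5, 18.7% of its 100-base stretches, occurs in other genes, and the part of this in the ratio was not tested.

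**Figure D2:**
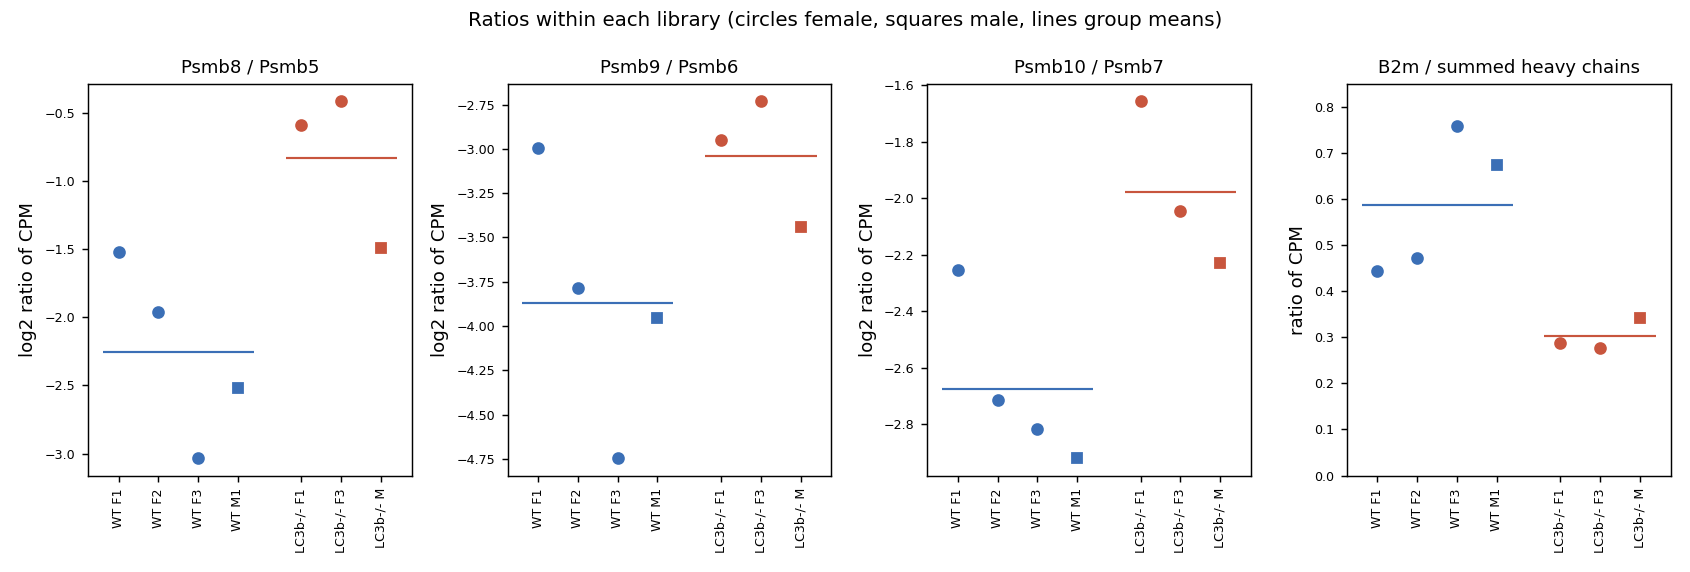
Log2 ratio of CPM of each immunoproteasome subunit to the subunit it replaces (first 3 panels) and ratio of B2m CPM to summed heavy chain CPM (last panel, from 0), by library, with circles for females, squares for males and lines for group means. Psmb8 over Psmb5 and Psmb10 over Psmb7 were higher, and B2m over heavy chains lower, in every LC3b-/- library (red) than in any WT library (blue).

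Nlrc5 encodes the transactivator that drives transcription of class I genes and of several of their helpers. Nlrc5 (chr8:95160984-95253900, plus strand) had 8.08, 4.47, 2.92 and 3.54 CPM in WT and 5.64, 8.35 and 7.89 CPM in LC3b-/-. WT F1 lay within the LC3b-/- range, and the other WT libraries lay below it. The log2 fold change was 0.62 (SE 0.37, adjusted p = 0.344). Nlrc5 lies on chromosome 8, as does the targeted gene Map1lc3b (chr8:122317100-122325499), 27.1 megabases away, so for this gene the targeted locus and any linked DNA of the 129P2 strain cannot be told apart. Psmb10 (chr8:106662362-106665077) and Irf8 (chr8:121463096-121485659), 1 of the regulators listed next, lie between Nlrc5 and Map1lc3b. The same limit holds for them, for the ratio of Psmb10 to Psmb7 and for other listed genes of chromosome 8.

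Of 25 interferon and class I regulators, 19 were higher in LC3b-/- and 6 lower. 8 had an unadjusted p under 0.05, all on the higher side (32% of the list, against 13.5% of all genes), none was called by edgeR, and DESeq2 called 4 (against 6.85% of all genes). The median log2 fold change was 0.29. The smallest unadjusted p was that of Ifngr2, a chain of the interferon-gamma receptor, with means of 14.7 ± 2.33 CPM for WT and 28.4 ± 2.87 CPM for LC3b-/- (log2 fold change 0.95, SE 0.15, adjusted p = 0.0688). Jak2, a kinase of that receptor, had a log2 fold change of 0.69 (adjusted p = 0.0951), Stat3 one of 0.60 (adjusted p = 0.0967) and Ifngr1, the other receptor chain, one of 0.89 (adjusted p = 0.0988). Irf1, a transcription factor that acts on class I genes below that receptor, averaged 211 ± 129 CPM and 306 ± 52.1 CPM (log2 fold change 0.53, adjusted p = 0.489).

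The start sites of 7 of the 10 genes had a promoter window in the RefSeq table (GRCm38.p6, 250 bases before to 50 after the start). They were searched on both strands for 3 short motifs: GAAANNGAA, the core of an interferon-stimulated response element, TTCNNNGAA, a gamma-activated sequence, and GGGATTCCC, a kappaB site of class I promoters. None of these motifs overlaps another in the windows printed. Of 32851 windows in the table, 8.56%, 8.30% and 0.353% held them. A further motif, the CCAAT box (CCAAT), was searched in the same way. It was in 37.4% of all windows and in those of each of the 7 genes except Psmb8, and it is not marked here. The 250 bases before the start are shown for the 2 classical heavy chains, B2m, H2-T23 and Psmb8, which are the windows with a match to the first 3 motifs, with that match in capitals. For H2-K1, which has 2 starts in the table, the first is shown, and both windows held the same match. They lie at chr17:34000348-34000597 (minus strand) for H2-K1, chr17:35262844-35263093 (plus) for H2-D1, chr2:122147437-122147686 (plus) for B2m, chr17:36032702-36032951 (minus) for H2-T23 and chr17:34197945-34198194 (plus) for Psmb8, all in GRCm38.p6.
H2-K1: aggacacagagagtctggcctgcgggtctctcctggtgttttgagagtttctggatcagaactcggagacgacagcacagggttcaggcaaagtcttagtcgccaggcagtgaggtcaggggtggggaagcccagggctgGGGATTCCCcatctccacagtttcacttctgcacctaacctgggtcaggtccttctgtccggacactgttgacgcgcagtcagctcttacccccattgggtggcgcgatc
H2-D1: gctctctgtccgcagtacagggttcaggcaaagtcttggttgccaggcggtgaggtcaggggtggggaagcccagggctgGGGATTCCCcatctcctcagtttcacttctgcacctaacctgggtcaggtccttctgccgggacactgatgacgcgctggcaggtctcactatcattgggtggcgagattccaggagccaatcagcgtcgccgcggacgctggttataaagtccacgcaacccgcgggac
B2m: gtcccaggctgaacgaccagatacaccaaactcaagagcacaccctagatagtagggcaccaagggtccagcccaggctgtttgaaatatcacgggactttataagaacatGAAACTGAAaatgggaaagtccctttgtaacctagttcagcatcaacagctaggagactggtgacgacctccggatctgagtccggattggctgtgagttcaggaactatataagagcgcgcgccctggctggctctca
H2-T23: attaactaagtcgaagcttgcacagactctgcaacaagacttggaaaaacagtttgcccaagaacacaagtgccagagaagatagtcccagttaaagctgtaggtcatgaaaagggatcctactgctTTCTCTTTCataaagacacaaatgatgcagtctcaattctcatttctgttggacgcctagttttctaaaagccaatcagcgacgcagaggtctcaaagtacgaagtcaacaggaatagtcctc
Psmb8: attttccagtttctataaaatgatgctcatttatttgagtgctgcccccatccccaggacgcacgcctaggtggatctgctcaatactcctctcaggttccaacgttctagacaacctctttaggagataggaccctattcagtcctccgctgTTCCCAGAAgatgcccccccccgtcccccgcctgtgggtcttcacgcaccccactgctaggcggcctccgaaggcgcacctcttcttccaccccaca
H2-K1 and H2-D1 both held GGGATTCCC, and B2m did not. B2m held GAAANNGAA, and so did H2-T23 on the opposite strand. Psmb8 held TTCNNNGAA. The windows of Tap1 and Psmb9, which overlap each other on opposite strands between the 2 genes, held none of the 3. Only these exact strings were searched, so a window without a match can still hold another form of the same element. A match is a description of letters and not a site in use, and the windows are of the reference strain.

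Per kilobase of the canonical transcript, the levels in WT ran from B2m (385 CPM per kilobase) over H2-K1 (148), H2-D1 (138), H2-T23 (33.6), Tap2 (14.3), Psmb8 (10.7), Tap1 (7.69), Psmb9 (5.73) and H2-T24 (0.653) to Nlrc5 (0.627). In LC3b-/- the same quantity was 340 for B2m, 221 for H2-K1, 253 for H2-D1, 43.1 for H2-T23, 17.4 for Tap2, 24.2 for Psmb8, 12.1 for Tap1, 8.82 for Psmb9, 3.04 for H2-T24 and 0.962 for Nlrc5. In WT the neighbours H2-K1 and H2-D1 did not differ beyond their spread, since H2-K1 was the higher in 2 of 4 libraries, and H2-T24 was above Nlrc5 in 3 of 4. In LC3b-/-, H2-D1 was above H2-K1 in 3 of 3 libraries, and Psmb8 was above Tap2 in 3 of 3, where it had been below Tap2 in 4 of 4 WT libraries. The ranges of Tap2 and Psmb8 per kilobase overlapped in WT.

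Across libraries most of the 10 genes were high and low together. On log2 CPM, standardised for each gene over the 7 libraries, the mean over the 10 genes was 0.63, -0.39, -1.58 and -0.56 for WT, in the order F1, F2, F3, M1. The 3 LC3b-/- means were 0.69, 0.71 and 0.50. WT F1 was thus level with LC3b-/-, and WT F3 was far below the rest. Of the 10 genes, 10, 6, 0 and 2 stood above their WT mean in the 4 WT libraries and 9 in each LC3b-/- library. Over the 45 pairs of genes the correlation across the 7 libraries ranged from -0.23 to 0.98 with a median of 0.85, and B2m had the weakest correlations. This is a description, since the libraries span both genotypes and a difference between the groups alone can give a high correlation. For the 9 genes other than H2-T24, leaving out WT F3 gave the lowest log2 fold change and leaving out WT F1 the highest, for example 0.49 and 0.94 for Tap1 and 0.97 and 1.39 for Psmb8.

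**Figure D3:**
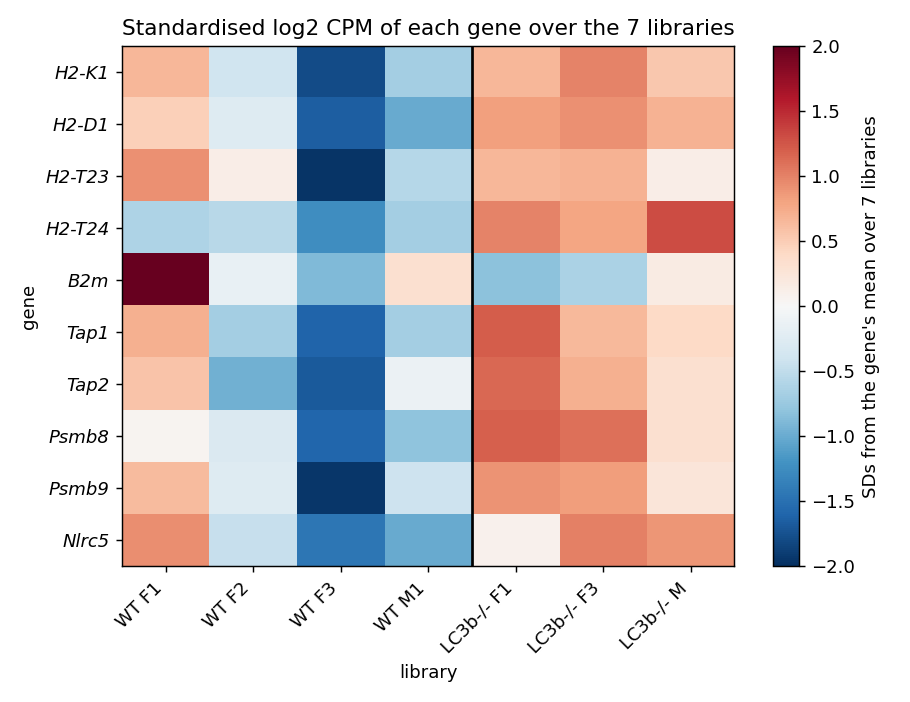
Log2 CPM of each gene (rows) in each library (columns), standardised over the 7 libraries, from blue (below the gene's mean) to red (above it), with a line between WT and LC3b-/-. Column means ran from -1.58 in WT F3 to 0.71 in LC3b-/- F3, and B2m stood apart from the other rows.

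Apart from the H2 genes and the genes of the pathway and marker lists, the genes whose level followed the mean of the 10 genes most closely over the 7 libraries were Nfkbiz (Pearson r = 0.993), Gbp2 (0.992), Iigp1 (0.991), Cfb (0.989), Ltbp4 (0.985) and Vcam1 (0.981). Nfkbiz encodes a nuclear inhibitor of NF-kappaB, Gbp2 and Iigp1 encode interferon-induced GTPases, Cfb encodes complement factor B, Ltbp4 encodes a matrix protein that binds latent TGF-beta, and Vcam1 encodes an adhesion molecule for leukocytes. Cfb lies on chromosome 17 among the genes of the H2 complex. They were the first 6 of 9785 candidates, of which 299 had an r above 0.9. The 7 libraries span both genotypes, so a difference between the groups alone can give a high r.

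The other class I genes of the H2 complex were mostly on the same side. Of 23 such genes, 14 were tested, 13 were higher in LC3b-/-, 3 had an unadjusted p under 0.05 on the higher side (of the 14, against 13.5% of all genes) and none was called by edgeR, where DESeq2 called 3. The median log2 fold change was 0.59. The 7 tested genes named H2-T, with H2-T23 and H2-T24 among them, were all higher, with a median of 1.61, and the 5 tested genes named H2-Q were all higher, with a median of 0.45 and none with an unadjusted p under 0.05.

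H2-T13 was close to absent in WT. It had 0, 3, 1 and 0 counts in WT and 45, 79 and 142 counts in LC3b-/-, so that 4 counts stood against 266. The ratio of CPM was 74.9, with an exact 95% interval of 28.9 to 277 that covers counting error only, and edgeR gave p = 2.6e-04 and an adjusted p of 0.0580. H2-T10 had 111, 31, 28 and 22 counts in WT and 131, 208 and 219 in LC3b-/- (log2 fold change 1.80, SE 0.48, adjusted p = 0.103). H2-T10 shares 7.23% of its 100-base stretches with H2-T22, whose level was 26.2 CPM in WT and 26.7 CPM in LC3b-/-. Their sum had a log2 fold change of 0.22 (SE 0.21, adjusted p = 0.548). H2-T22 held most of that sum, beside 1.61 and 5.65 CPM of H2-T10, so the sum cannot decide whether H2-T10 differed. H2-M2 had 14, 16, 6 and 8 counts against 46, 163 and 16, with LC3b-/- M inside the WT range at the level of counts (log2 fold change 2.41, adjusted p = 0.122). H2-T7 had 50, 15, 4 and 9 counts against 44, 54 and 92 (log2 fold change 1.57, adjusted p = 0.222), and 88.4% of its 100-base stretches occurs in another gene.

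**Figure D4:**
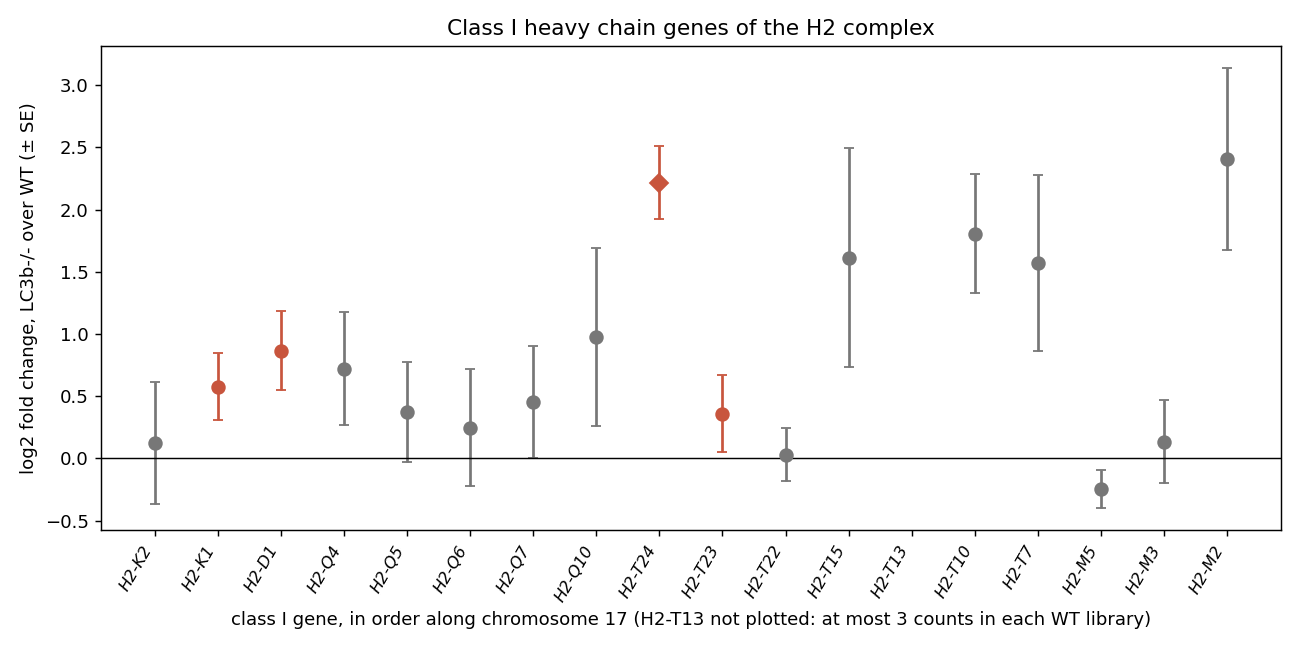
Log2 fold change of LC3b-/- over WT with its SE (vertical axis) for the tested class I heavy chain genes in their order along chromosome 17, with H2-K1, H2-D1, H2-T23 and H2-T24 in red, the other genes in grey and a diamond for the called gene. H2-T13 is left out because each WT library had at most 3 counts. The H2-T genes ran from 0.03 (H2-T22) to 2.22 (H2-T24), and H2-M5 was below 0.

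The stretch of chromosome 17 that holds the class I genes (chr17:34194050-37794472) was read for its other genes as well. Of 318 genes there, 130 were tested, 85 were higher in LC3b-/-, 21 (16.2%) had an unadjusted p under 0.05 on the higher side and 9 on the lower, and H2-T24 alone was called. For the 102 tested genes that are no H2 genes, 15 (14.7%) had an unadjusted p under 0.05 on the higher side, beside 13.5% of all genes, and the median log2 fold change was 0.12. After H2-T24 and H2-T13, the smallest unadjusted p were those of Slc44a4 (log2 fold change 5.59, adjusted p = 0.0842), Clic1 (1.43, 0.0906), Ly6g6e (3.36, 0.0951) and Muc21 (6.46, 0.0952). Slc44a4, Ly6g6e and Muc21 are known from epithelia.

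Of 9 class I-like genes outside the H2 complex, 7 were tested, 5 of these were on the higher side, none was called, and an unadjusted p under 0.05 on the higher side was found for 1 gene (14.3%), which is near the 13.5% of all genes. The median log2 fold change was 0.16. The gene was Ulbp1, a ligand of the receptor NKG2D, which averaged 0.404 ± 0.220 CPM and 1.44 ± 1.00 CPM in the 2 groups (log2 fold change 1.81, adjusted p = 0.156). Fcgrt, the heavy chain of the neonatal Fc receptor that also pairs with beta-2-microglobulin, averaged 80.9 ± 14.9 CPM and 85.4 ± 14.1 CPM (log2 fold change 0.08, adjusted p = 0.819), and Mr1, which presents vitamin B metabolites, had a log2 fold change of -0.15 (adjusted p = 0.504). Raet1e, another NKG2D ligand, had one of 0.46 (adjusted p = 0.466), and Cd1d1, which presents lipids, one of 0.52 (adjusted p = 0.490).

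Markers of several cell types other than RPE also differed between the groups. All 10 markers of endothelium, which carries much class I, were higher in LC3b-/-. Of these, 3 had an unadjusted p under 0.05 (30%, against 13.5% of all genes on the higher side). None was called by edgeR, while DESeq2 called 1 (against 6.85% of all genes). In 6 of them (60%, against 12% of all genes) every LC3b-/- library lay above every WT library. The summed level of the 10 markers was 1318, 1170, 514 and 409 CPM in WT and 1697, 1755 and 1486 CPM in LC3b-/-, without overlap. WT F1, with the highest class I level in WT, was also the highest WT library there. It was likewise highest in WT for the summed markers of macrophages and microglia, class II, T and NK cells, and fibroblasts. For the RPE, photoreceptor and ocular surface sums it was not. All 10 markers of ocular surface epithelium were higher, 7 with an unadjusted p under 0.05 (13.5% of all genes were so on the higher side), with sums of 9.14 to 2418 CPM in WT and 3308 to 23506 CPM in LC3b-/-. DESeq2 called 5 of these markers higher (against 6.85% of all genes). In 9 of them (90%, against 12% of all genes) every LC3b-/- library lay above every WT library. The orders of the libraries in these sums and in the class I sums were alike in part. WT F1 and F2 were the highest WT libraries in both the endothelial and the class I sums (1200 and 817 CPM). The lowest WT library was M1 in the endothelial sums (409 CPM) and F3 in the class I sums (455 CPM). In the ocular surface sums WT F3 was lowest too, while WT M1 had the highest ocular surface sum in WT (2418 CPM) beside a class I sum of 613 CPM. LC3b-/- F1 and M, with ocular surface sums of 23506 and 3308 CPM, had class I sums of 1207 and 1181 CPM. Orders over so few libraries cannot decide which cells carried the class I RNA, and this was not tested.

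All 9 class II genes and markers of professional antigen presenting cells were higher in LC3b-/-, with sums of 137 to 351 CPM in WT and 320 to 550 CPM in LC3b-/- that overlapped. An unadjusted p under 0.05 was found for 1 of them (11.1%, near the 13.5% of all genes on the higher side). The defining class II genes H2-Aa (log2 fold change 0.83, adjusted p = 0.261) and Cd74 (0.77, 0.209) were not called. Markers of macrophages and microglia were higher in 7 of 13, with sums of 615 to 840 CPM and 678 to 1478 CPM. Markers of T and NK cells summed to 4.23 to 15.3 CPM in WT and 8.88 to 18.3 CPM in LC3b-/-, with 8 of the 10 tested genes higher, none with an unadjusted p under 0.05 and a median log2 fold change of 0.47. All 9 fibroblast markers were higher, none with an unadjusted p under 0.05, with sums of 718 to 1924 CPM and 1354 to 2256 CPM. All 10 photoreceptor markers were lower and none had an unadjusted p under 0.05, with sums of 275 to 20882 CPM and 97.7 to 7245 CPM. Of 13 RPE markers, 12 were lower in LC3b-/- and 7 of them had an unadjusted p under 0.05, against 10.6% of all genes on that side. No marker in these lists was at 0 in every library, and the part of these cells in the class I levels was not tested.

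**Figure D5:**
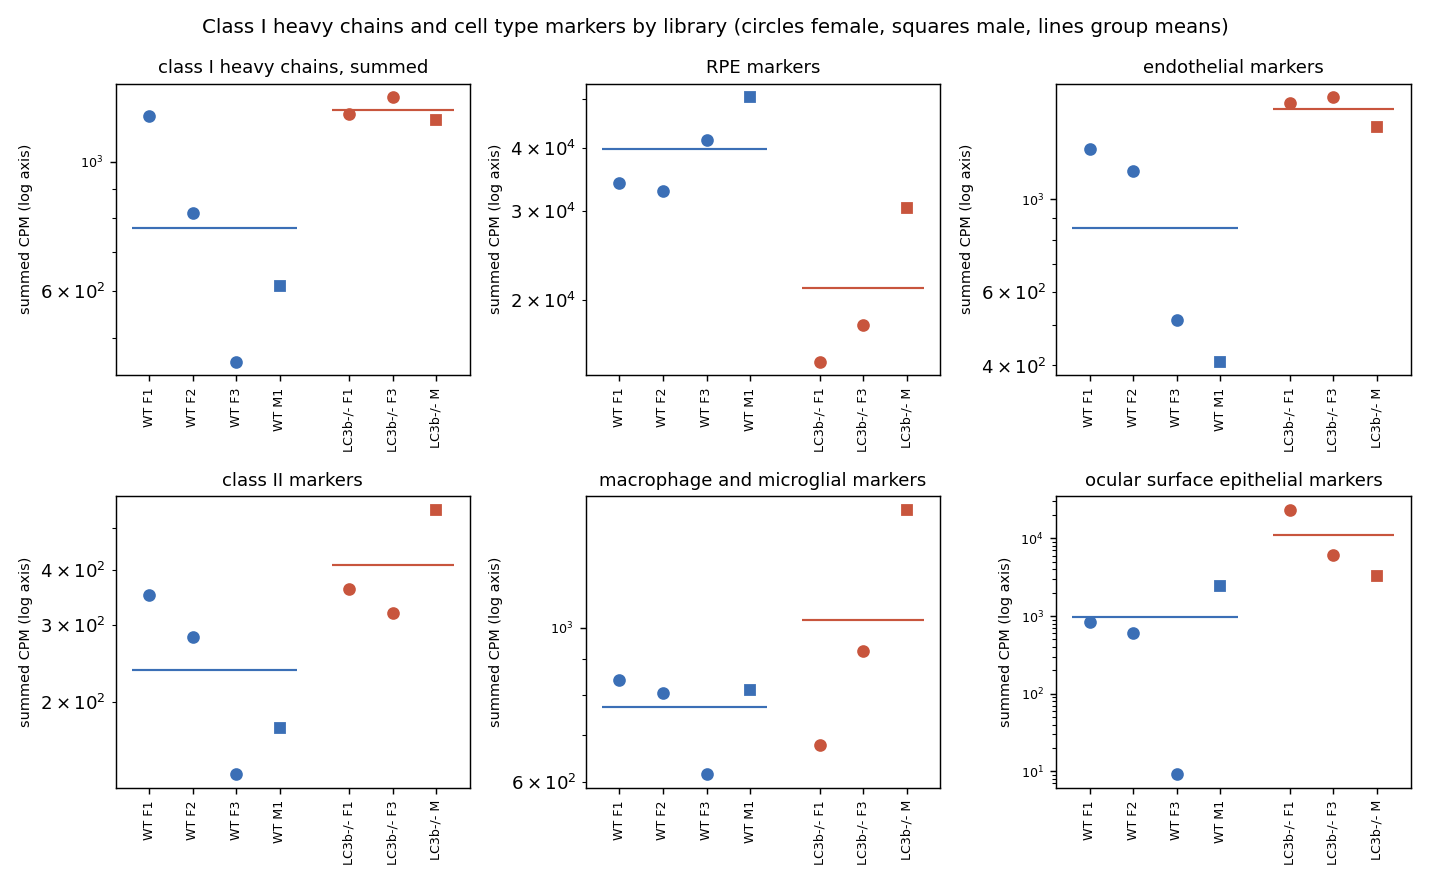
Summed CPM (log axes) of the class I heavy chain genes with a count in any library and of 5 marker lists by library, with circles for females, squares for males and lines for group means. For heavy chains and for endothelial, class II and macrophage markers the highest library was an LC3b-/- library, and F1 was the highest in WT. WT F1 overlapped the LC3b-/- libraries in each of these except endothelial markers. RPE markers were lower in each LC3b-/- library than in any WT library, and ocular surface markers ranged from 9.14 CPM in WT F3 to 23506 CPM in LC3b-/- F1.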

How the data were processed

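RPE RNA from 7 mice, 1 library per mouse, was sequenced as single 100-base reads from a stranded mRNA library kit. Per the methods, the authors quantified reads with salmon against the GENCODE vM26 transcripts of GRCm39 and summed them to genes with tximeta. What was deposited are estimated counts, whole numbers without scaling to depth, and each of the 7 columns was used.

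The members and lists were chosen with earlier results of these data known. Symbols and coordinates come from GENCODE vM39, which is on the same build and matched 51721 of 52740 identifiers, and promoters from RefSeq (GRCm38.p6). Groups follow the genotype labels, and p-values measure the spread between mice, whose litters and dates are not given in the sources used here.

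Tests were run with edgeR 4.0.16 (R 4.3.3): after filterByExpr and TMM scaling, genotype was the single term of a quasi-likelihood model, with Benjamini-Hochberg adjustment over 16990 genes. CPM use TMM-scaled library sizes, and log2 CPM add a prior count of 2. Exact permutation tests of single values are two-sided and use all 35 ways to divide 7 libraries into 4 and 3. Alternatives were DESeq2 1.42.0, limma 3.58.1 (voom with quality weights), other scalings and filters, sex as a covariate, females only, mouse names as a block and each library left out. In the text, all members were named with every library's value, and of each other list every called gene or, where none was, up to 4 with the smallest unadjusted p, with Psmb10, Psmb5, Psmb6, Psmb7, Tapbp and Irf1 always eligible. 1 further gene of that rule is not reported here. For the H2 region it was each called gene and the next 5. Calr, Fcgrt, Irf8, H2-T22, H2-M5, A930015D03Rik and the marker genes were named after their values were seen. The code was tested on simulated data. Depth of 24495952 to 35616134 counts makes counting error small beside the spread between mice for genes of high counts. This does not hold for H2-T13, for H2-T24 in WT (25 to 55 counts) and for other genes at about 1 CPM or less. Sequences were handled with Python 3.11.15 and Biopython 1.88.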

Additional observations from a re-analysis of the deposited data

Results flagged for a closer look

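H2-T24 was the one gene of the 10 in which a library stood apart from its group. In WT, on log2 CPM with a prior count of 2, the gap between the lowest library, WT F3, and the next was 0.831 of the whole range, just above Dixon's 95% limit for 4 samples. On CPM the same ratio was 0.789, below that limit, so the flag depends on the scale. Chance flags about 1 in 20 groups, and 10 genes were looked at in WT, while 3 LC3b-/- libraries are too few for this rule. Without WT F3 the log2 fold change of H2-T24 was 2.04, with an adjusted p of 0.107 (edgeR).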

How the results depend on the processing

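9 of the 10 genes were higher in LC3b-/- under every alternative run. H2-T24 was called with every scaling, filter and test and with sex as a covariate. The number of genes called went from 1 to 2 with DESeq2 and to 0 with females only (H2-T24: log2 fold change 2.05, adjusted p = 0.0818) and with the mouse name as a replicate block (2.32, 0.117), and was 0 to 1 with each library left out. The number with an unadjusted p under 0.05 went from 3 to 5 with DESeq2 and to 8 with voom, and was 2 to 8 with each library left out. The log2 fold change of H2-T24 summed with the genes that share a 100-base stretch was -0.0306, since other genes hold most of that sum. The cause of the other changes was not tested. The replicate block is a check only: deviations of same-named mice correlated at 0.146 (F1), 0.243 (F3) and -0.172 (males), so the names do not pair the samples, and WT M1 correlated best with LC3b-/- F1. Depth limits H2-T13, H2-T24 in WT and the class I genes left untested, which had few counts in each library.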
